A study of Homo sapiens with 6 samples.

Results

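The cell cycle and proliferation genes described here are 58 human genes, chosen by name from the gene column of the deposited expression table, of 57500 genes in all. The rule uses no measured value, although the list was drawn up with earlier results of these data known. They cover the G1 cyclins and their kinases, the CDK inhibitors, RB1 with the E2F and other cell cycle transcription factors, the replication genes, the S, G2 and mitotic cyclins, and the genes of mitosis. They were read in polyA-selected RNA libraries of 22Rv1, an established cell line from a human prostate carcinoma, with 2 groups of 3 libraries each. The LV group was made from 22Rv1 cells obtained from a liver metastasis. The WT group was parental 22Rv1, labelled as the control. All 6 samples carry the same cell line name and growth medium, RPMI-1640 with fetal bovine serum. The labels name no transgene or drug, do not say how many metastases or animals the LV cells came from, and do not say whether the libraries of a group were separate cultures. The p-values below therefore measure the spread between these libraries, which may be technical, and properties of a single derivation cannot be told apart from those of liver metastasis.

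Cells enter the cycle when D-type cyclins with CDK4 or CDK6, and then cyclin E with CDK2, phosphorylate the RB1 protein and release E2F transcription factors. E2F factors switch on the genes of DNA replication and nucleotide synthesis. Later in the cycle FOXM1 and MYBL2, working with the MuvB complex, switch on the mitotic genes, while the INK4 and CIP/KIP proteins hold the kinases back. Because each library is bulk RNA, fewer cells in a given phase and less of an RNA per cell cannot be told apart.

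Library totals ran from 28395265 to 53275252 counts, and values are given as CPM, counts scaled to a common TMM-adjusted library total, unless TPM is named. WT replicate 2 stood apart from the other WT libraries. The chi-square per degree of freedom between gene counts was 55.3 and 61.8 for WT replicate 2 against WT replicates 1 and 3, and 2.24 to 3.15 for every other pair within a group. Its departure followed the GC content of the transcripts, which is described for the cell cycle genes below. Mitochondrial reads made up 1.675 to 1.72% of counts in LV libraries and 1.187 to 1.379% in WT libraries, with WT replicate 2 lowest. All 8 prostate epithelial markers were detected in both groups, 2 of them higher and 4 lower in LV: KRT8 averaged 1144 ± 17.4 CPM in LV and 658.9 ± 94.0 CPM in WT, and HOXB13 325.5 ± 1.77 CPM in LV and 543.5 ± 56.0 CPM in WT (SD, n = 3 each). KRT18 also rose (log2 fold change 0.73). KLK2, KLK3 and FOLH1 fell further than HOXB13 (-3.18, -2.53 and -1.73, against -0.74). Of 10 hepatocyte markers, 8 stayed under 1 CPM in every library and FGA was at 0 throughout. The 10 summed to 65.4 to 69.1 CPM in LV and 43.3 to 53.8 CPM in WT, nearly all of it ALB. Of 3 tested, ALB (log2 fold change 0.46) and APOA1 (1.78) were called higher in LV and ASGR1 (-3.08) lower. Of 9 stromal and endothelial markers 5 stayed under 1 CPM, CDH5 was at 0, and the sums were 20.6 to 21.8 CPM in LV and 21.5 to 25.3 CPM in WT. Of 5 tested, 2 were called, both lower in LV: LUM (-4.93) and COL3A1 (-1.13), at no more than 1.95 CPM in any library. Of 6 leukocyte markers 4 stayed under 1 CPM, CD3E was at 0, and the sums were 12.2 to 20.4 CPM in LV and 11.6 to 15.6 CPM in WT. The part of these markers in the results below was not tested.

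Promoter stretches of 7 genes are shown because genes that share the same short elements had different outcomes in the fit with all 6 libraries. The labels below are from that fit. Without WT replicate 2, PLK1 was also called higher (edgeR adjusted p = 0.00102). The TOP2A and E2F1 calls were lost in 7 and 6 of 20 alternative settings. The CHR element (letters TTTGAA) is bound by the DREAM and MuvB complexes in mitotic promoters, the CCAAT box (letters CCAAT) by NF-Y, and the E2F element (searched as TTTCCCGC, TTTGGCGC or TTTCGCGC) by E2F factors. Each was searched on both strands in the 250 bases before the annotated start. The sequences are from RefSeq on GRCh38.p14, end at the base before the start, run 5′ to 3′ on the gene's strand, and carry the elements in capitals. The first 4 show CHR and CCAAT elements and the last 3 show E2F elements, with CCAAT elements in E2F1 and MCM6 but not in TYMS.
CDC20, lower in LV, chr1:43358861-43358980, plus strand: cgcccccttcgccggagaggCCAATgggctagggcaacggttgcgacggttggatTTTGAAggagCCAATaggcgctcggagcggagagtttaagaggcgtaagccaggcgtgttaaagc
MKI67, lower in LV, chr10:128126424-128126543, minus strand: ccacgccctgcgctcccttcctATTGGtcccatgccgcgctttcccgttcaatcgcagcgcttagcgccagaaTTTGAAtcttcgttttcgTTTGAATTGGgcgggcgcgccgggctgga
PLK1, not past the threshold, chr16:23678769-23678888, plus strand: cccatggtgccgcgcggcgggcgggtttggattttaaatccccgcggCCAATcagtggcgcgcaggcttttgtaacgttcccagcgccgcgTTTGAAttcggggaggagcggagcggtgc
TOP2A, higher in LV, chr17:40417897-40418106, minus strand: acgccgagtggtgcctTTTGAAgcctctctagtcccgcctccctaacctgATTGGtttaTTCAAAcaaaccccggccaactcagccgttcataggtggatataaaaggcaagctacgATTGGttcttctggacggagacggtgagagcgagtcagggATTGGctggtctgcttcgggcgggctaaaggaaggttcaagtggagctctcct
E2F1, lower in LV, chr20:33686386-33686505, minus strand: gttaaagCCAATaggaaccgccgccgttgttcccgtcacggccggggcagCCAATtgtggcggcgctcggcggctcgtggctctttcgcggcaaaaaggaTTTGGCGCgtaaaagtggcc
TYMS, lower in LV, chr18:657533-657652, plus strand: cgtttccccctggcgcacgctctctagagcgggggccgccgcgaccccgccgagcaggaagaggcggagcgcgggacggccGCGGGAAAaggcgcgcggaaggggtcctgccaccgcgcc
MCM6, not past the threshold, chr2:135876444-135876613, minus strand: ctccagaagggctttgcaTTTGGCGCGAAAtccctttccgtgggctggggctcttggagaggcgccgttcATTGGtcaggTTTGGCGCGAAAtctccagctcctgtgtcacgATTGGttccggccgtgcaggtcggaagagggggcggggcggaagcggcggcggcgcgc

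In MKI67 the second CHR letters share a base with a CCAAT box on the other strand, and in MCM6 each capital run of E2F letters holds overlapping matches on both strands. Promoter windows were found for 44 of the 58 genes. A CHR match was present in at least one window of 12 of the 44, a CCAAT match in 31 and an E2F match in 13. Among all 35116 windows of the same length, 13.3% held CHR letters, 32.0% CCAAT and 2.32% E2F letters; per window, the cell cycle genes' shares were 20.6%, 63.5% and 20.6% of 63 windows. By role, CHR letters were found in 6 of 11 mitotic genes with a window, 4 of 8 genes of the S, G2 and mitotic cyclin group, 1 of 11 replication genes and 1 of 6 genes of the RB1 and transcription factor group, and in none of the G1 or inhibitor genes. E2F letters were found in 7 of 11 replication genes, 3 of 6 of the transcription factor group, 2 of 8 of the cyclin group and 1 of 11 mitotic genes, and again in none of the G1 or inhibitor genes. CCAAT letters stood in every role group, from 1 of 4 G1 genes to 8 of 8 of the cyclin group. These shares were not tested. By outcome in the fit with all 6 libraries, CHR letters stood in 1 of 4 genes that rose, 2 of 9 that fell and 9 of 31 that did not pass. E2F letters stood in 0, 3 and 10 of the same genes. These classes depend on the fit, as 26 members that did not pass there were called without WT replicate 2. A match is a description of the letters in the window and not evidence of a bound site.

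With all 6 libraries, changes in the cell cycle genes were small and went both ways. Of 57 genes tested, 5 rose and 12 fell in LV (edgeR's quasi-likelihood test, with p adjusted by Benjamini-Hochberg over 19255 genes and a threshold of 0.05), and 40 did not pass. The 17 genes called are 29.8% of those tested, against 38.8% of all genes. By direction, 8.77% rose against 17.5% of all genes, and 21.1% fell against 21.3%. The largest log2 fold change in this fit was 0.66, for CCND1, and none of the 57 reached 2-fold, whereas 13.8% of all genes tested were called with a change of at least 2-fold. The median log2 fold change was -0.0778, and the median size without regard to sign was 0.170, against -0.00754 and 0.293 over all genes tested. The 5 that rose were CCND1, CDKN2B, E2F7, RRM2 and TOP2A; the 12 that fell were CDK2, CDKN1C, CDKN2C, CDKN2D, E2F1, E2F8, MYBL2, PCNA, TYMS, CENPF, CDC20 and MKI67. Of the 17, 10 passed in each of 20 alternative settings: CCND1, CDC20, CDK2, CDKN1C, CDKN2B, CDKN2C, CDKN2D, E2F8, MKI67 and MYBL2. Scaling by library size alone gave 3 higher and 19 lower, and limma on log2(TPM + 1) 3 higher and 18 lower.

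Leaving out WT replicate 2 changed the count more than any other setting tried. Without it, 17 genes rose and 26 fell (edgeR adjusted p under 0.05), or 75.4% of the 57, against 59.8% of all genes. By direction, 29.8% rose against 28.8% of all genes, and 45.6% fell against 31.0%. The 17 called with all 6 libraries were all called again in the same direction, and 26 were added, 12 higher and 14 lower. The fold changes themselves stayed small: the largest was 0.63 on the log2 scale and the median size 0.165. What narrowed was the error, with a median standard error of 0.0264 without WT replicate 2 and 0.0871 with it. The WT group then rests on 2 libraries.

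**Figure D1:**
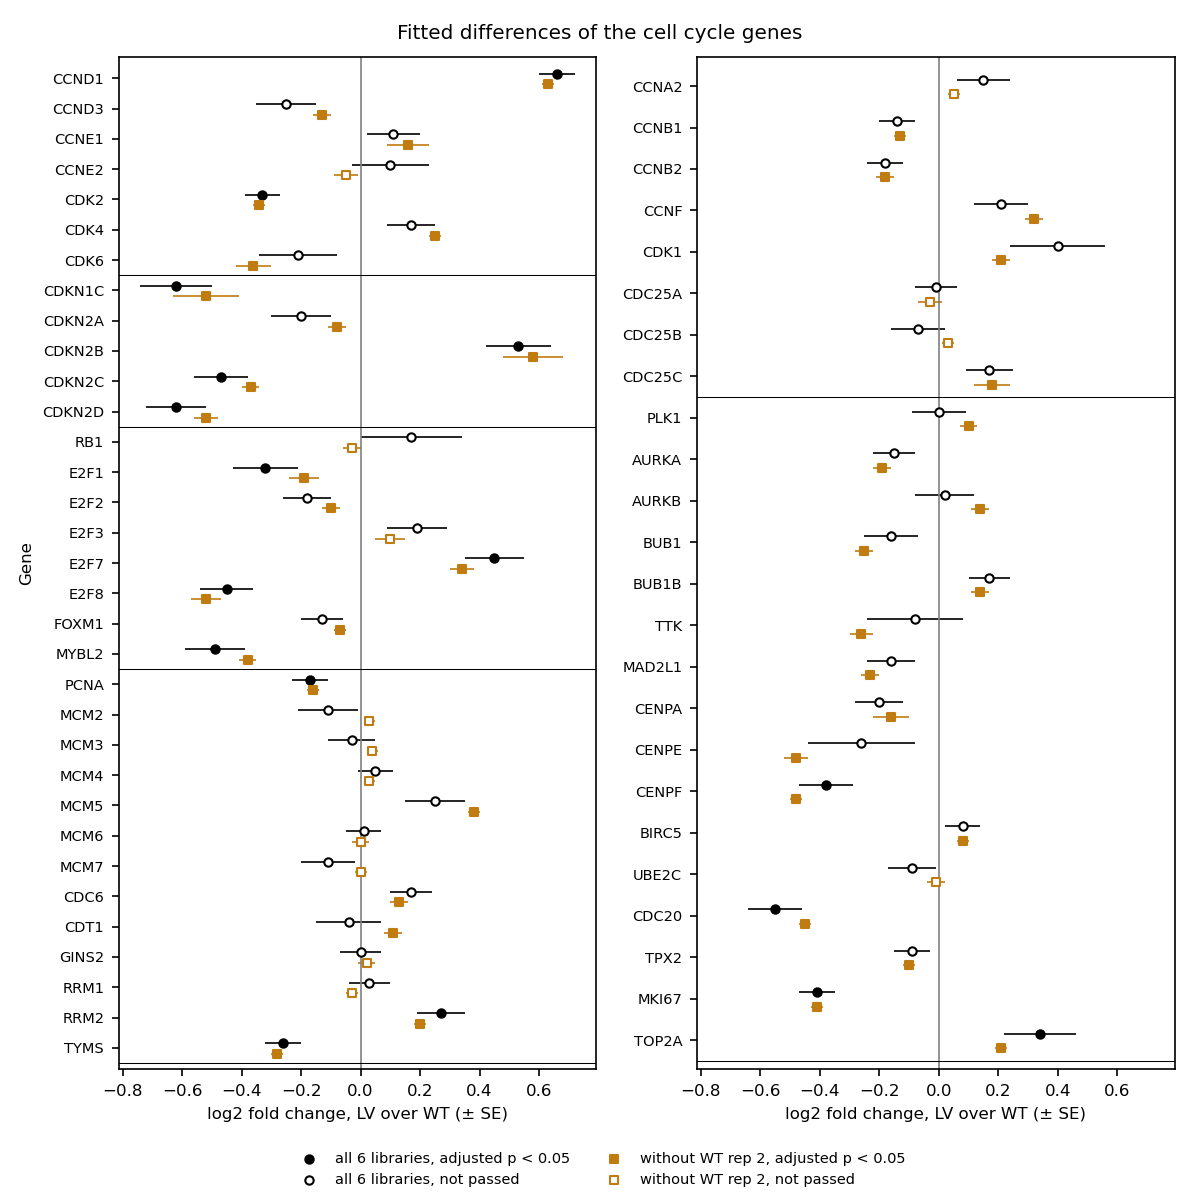
Fitted log2 fold change of LV over WT with its standard error (x axis) for the 57 genes tested (y axis), grouped by role; black circles use all 6 libraries, orange squares leave out WT replicate 2, and filled symbols passed the threshold. The positions of both symbols lie close together for most genes, whereas the error bars shrink without WT replicate 2 and the filled symbols go from 17 to 43.

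Cyclin D1 had the highest TPM of the 57 genes and, with all libraries and TMM scaling, the largest change. That rank by change did not hold throughout: with library size alone CCND1 had a log2 fold change of 0.61, against -0.68 for CDKN1C and -0.67 for CDKN2D, and CDKN1C or CDKN2D was also ahead on each TPM scale and without LV replicate 1 or WT replicate 1. CCND1 (ENSG00000110092; chromosome 11, 69641087 to 69654474, GRCh38, plus strand), which encodes the G1 cyclin partner of CDK4 and CDK6, had 4494, 4464 and 4536 CPM in LV replicates 1 to 3, against 2877, 2739 and 2912 CPM in WT replicates 1 to 3. All LV libraries lay far above all WT libraries. The log2 fold change was 0.66 (SE 0.06, edgeR adjusted p = 2.35e-05), or 1.58-fold higher, and 0.63 without WT replicate 2. Its exons overlap ORAOV1 on the opposite strand, which held 782 to 1516 reads per library, beside at least 124310 for CCND1. CCND1 also weighed on the summed RNA of the 58 genes. They summed to 13405, 13279 and 13327 CPM in LV and 11939, 12234 and 11960 CPM in WT. Without CCND1 the sums were 8911, 8815 and 8791 CPM in LV, against 9062, 9494 and 9047 CPM in WT, so the remainder was slightly lower in every LV library.

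The other D cyclins did not share that rise. CCND2 held 1 to 8 reads per library, the only one of the 58 genes to fail the filter on low counts. CCND3 had 61.3, 59.9 and 61.1 CPM in LV, against 67.2, 83.8 and 66.3 CPM in WT. Its groups did not overlap, yet the difference did not pass with all libraries under TMM scaling and the count filter (log2 fold change -0.25, SE 0.10, edgeR adjusted p = 0.0722). It passed on all 6 libraries in some other settings, among them library size alone (adjusted p = 0.0206), no filter (adjusted p = 0.0264) and the GC correction (adjusted p = 7.47e-04). Without WT replicate 2 it was called lower (-0.13, adjusted p = 6.22e-04). TPM divides by the annotated gene length and so allows a rough comparison of genes. In TPM, CCND1 averaged 3270 ± 15.0 in LV and 2129 ± 158.0 in WT (SD, n = 3 each). CCND3 averaged 36.8 ± 0.412 TPM in LV and 44.9 ± 4.05 TPM in WT, and CCND2 0.0597 ± 0.0277 TPM in LV and 0.0341 ± 0.0206 TPM in WT.

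Among the G1 kinases, CDK2, the partner of cyclins E and A, was lower in LV. CDK2 had 226.6, 220.0 and 215.7 CPM in LV, against 280.1, 270.9 and 278.6 CPM in WT. The groups did not overlap, and WT replicate 2 was close to its fellow libraries. The log2 fold change was -0.33 (SE 0.06, edgeR adjusted p = 0.00284), and CDK2 passed in every alternative. CDK4 had 311.3, 296.0 and 302.7 CPM in LV, against 255.8, 298.9 and 256.3 CPM in WT. WT replicate 2 was the one WT library that lay within the LV range. CDK4 thus did not pass with all libraries (0.17, SE 0.08, adjusted p = 0.128), though it did with the GC correction (0.18, adjusted p = 2.61e-04). Without WT replicate 2 it was called higher (0.25, adjusted p = 1.94e-11). CDK4 overlaps TSPAN31 on the opposite strand over 1369 of 3168 bases. TSPAN31 itself was assigned 1358 to 2535 reads per library. How reads in the shared bases were assigned or dropped is not known, because the strand setting is not given. CDK6, the relative of CDK4, was far scarcer, at 5.27 ± 0.370 TPM in LV and 6.31 ± 1.38 TPM in WT, beside 336.3 ± 8.66 TPM in LV and 307.5 ± 14.5 TPM in WT for CDK4. CDK6 had 16.9, 18.8 and 19.5 CPM in LV, against 22.8, 16.9 and 24.2 CPM in WT (log2 fold change -0.21, adjusted p = 0.25). It was called lower with the GC correction (-0.26, adjusted p = 0.00278) and without WT replicate 2 (-0.36, adjusted p = 2.71e-06).

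The E cyclins, which bind CDK2 at the start of S phase, gave no call with all libraries. CCNE1 averaged 13.4 ± 0.410 CPM in LV and 12.4 ± 0.869 CPM in WT (log2 fold change 0.11, edgeR adjusted p = 0.345), and was called higher without WT replicate 2 (0.16, adjusted p = 0.0361). CCNE2 averaged 37.9 ± 0.121 CPM in LV and 35.5 ± 6.93 CPM in WT and passed in neither fit (0.10 with all libraries and -0.05 without WT replicate 2). CCNE2 also overlaps INTS8 on the opposite strand over 1629 bases.

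**Figure D2:**
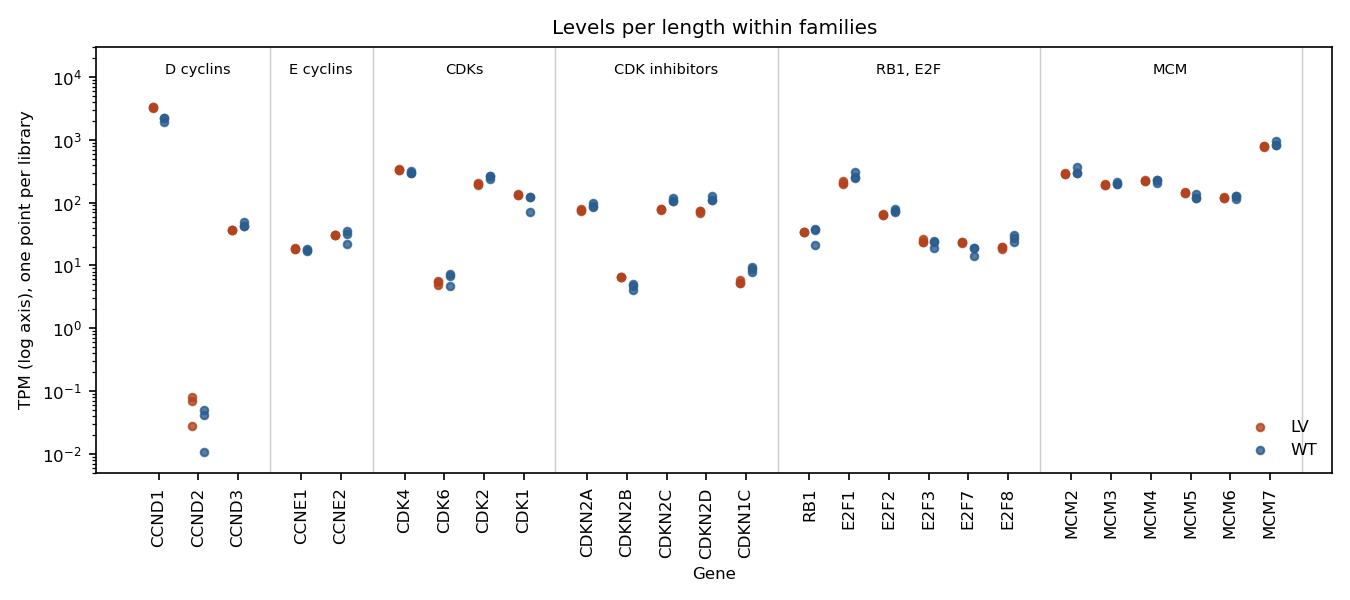
Deposited TPM on a log axis (y axis) for genes of 6 families (x axis), with 1 point per library, LV in red at the left and WT in blue at the right of each gene. CCND1 lies near 3270 TPM in LV and 2129 TPM in WT, CCND2 under 0.1 TPM, and CDK4 well above CDK6 in both groups.

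The CDK inhibitors split. The INK4 proteins bind CDK4 and CDK6, and CDKN1C (p57) binds several cyclin-CDK complexes; 1 of the 5 inhibitor genes rose and 3 fell. CDKN2B (p15) had 7.51, 7.44 and 7.70 CPM in LV, against 4.47, 5.62 and 5.59 CPM in WT. Every LV library was above every WT library (log2 fold change 0.53, SE 0.11, edgeR adjusted p = 0.00496). Its level was among the lowest of the members, resting on 208 to 392 reads.

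CDKN2D (p19) had 29.3, 31.9 and 31.7 CPM in LV, against 44.3, 55 and 43.9 CPM in WT. CDKN2C (p18) had 73.5, 73.9 and 71.9 CPM in LV, against 95.2, 114.7 and 93.4 CPM in WT. For both genes the groups were well apart, with WT replicate 2 the highest library. The log2 fold changes were -0.62 (SE 0.10, edgeR adjusted p = 0.00131) for CDKN2D and -0.47 (SE 0.09, adjusted p = 0.00324) for CDKN2C. Without WT replicate 2 they were -0.52 and -0.37, still past the threshold. CDKN1C had 4.35, 3.79 and 3.93 CPM in LV, against 5.52, 7.12 and 6.09 CPM in WT (log2 fold change -0.62, SE 0.12, adjusted p = 0.00365).

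CDKN2A, whose gene count joins the transcripts of p16 and p14ARF, did not pass with all libraries under TMM scaling and was called lower without WT replicate 2. Library size alone as the scaling also called it lower on all 6 libraries (edgeR adjusted p = 0.0479). It had 91.0, 94.3 and 97.6 CPM in LV, against 102.1, 125.8 and 97.5 CPM in WT. The highest LV library and the lowest WT library were almost level, so that the groups overlapped (log2 fold change -0.20, SE 0.10, edgeR adjusted p = 0.148; without WT replicate 2 -0.08, adjusted p = 0.0200). Per length, CDKN2A averaged 76.5 ± 2.41 TPM, CDKN2C 77.4 ± 1.42 TPM and CDKN2D 72.4 ± 3.26 TPM in LV, the first pair within their spread of each other. In WT, CDKN2A averaged 90.2 ± 8.52 TPM, CDKN2C 109.7 ± 7.79 TPM and CDKN2D 114.3 ± 9.80 TPM. The annotated lengths used were 4329 bases for CDKN2A, 3318 for CDKN2C and 1503 for CDKN2D. They may differ from the lengths of the transcripts expressed, which limits this comparison between genes.

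RB1, the pocket protein that restrains E2F, showed how far WT replicate 2 could move a gene. RB1 had 59.2, 60.4 and 60.9 CPM in LV, against 60.9, 37.8 and 62.1 CPM in WT. WT replicate 2 was the sole library apart, and the other 5 lay between 59.2 and 62.1 CPM. The log2 fold change was 0.17 (SE 0.17, edgeR adjusted p = 0.469) with all libraries and -0.03 (SE 0.03, adjusted p = 0.416) without that library. RB1 transcripts hold 37.3% GC, among the lowest of the 57 genes.

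The atypical E2F repressors E2F7 and E2F8 moved in opposite directions. E2F7 had 41.1, 42.1 and 41.9 CPM in LV, against 33.1, 26.1 and 32.6 CPM in WT. E2F8 had 21.3, 23.5 and 23.2 CPM in LV, against 30.9, 28.3 and 33.7 CPM in WT. The groups did not overlap for either gene, and the log2 fold changes were 0.45 (SE 0.10, edgeR adjusted p = 0.00694) for E2F7 and -0.45 (SE 0.09, adjusted p = 0.00386) for E2F8. Without WT replicate 2 they were 0.34 and -0.52. The E2F7 call was lost with limma on log2(TPM + 1) and no filter on low values (limma adjusted p = 0.0878).

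Of the activating factors, MYBL2 (B-MYB), which carries late cell cycle transcription, had 129.4, 131.3 and 135.8 CPM in LV, against 172.7, 214.3 and 170.1 CPM in WT. It was lower in each LV library than in each WT library (log2 fold change -0.49, SE 0.10, edgeR adjusted p = 0.00356; -0.38 without WT replicate 2). E2F1 had 140.7, 157.1 and 149.2 CPM in LV, against 174.9, 219.8 and 163.8 CPM in WT. The E2F1 call was marginal (log2 fold change -0.32, SE 0.11, adjusted p = 0.0472). It was lost with RLE scaling, with limma-voom, and without any 1 LV library or WT replicate 1, with adjusted p up to 0.169, and it held without WT replicate 2 (-0.19, adjusted p = 0.0129).

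FOXM1, the forkhead activator of mitotic genes, had 204.7, 198.1 and 198.6 CPM in LV, against 210.2, 238.8 and 211.0 CPM in WT. The groups came close without overlapping (log2 fold change -0.13, edgeR adjusted p = 0.182; without WT replicate 2 -0.07, adjusted p = 0.00825), and FOXM1 overlaps ITFG2 on the opposite strand. E2F2 averaged 99.4 ± 2.05 CPM in LV and 112.4 ± 10.9 CPM in WT (-0.18 with all libraries, and without WT replicate 2 -0.10, adjusted p = 0.00293). Both genes passed on all 6 libraries in some other edgeR settings. With library size alone the adjusted p was 0.0370 for FOXM1 and 0.0300 for E2F2, and with the GC correction 0.0151 and 0.00885. E2F3 averaged 36.5 ± 2.38 CPM in LV and 31.9 ± 3.27 CPM in WT and passed in neither fit.

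**Figure D3:**
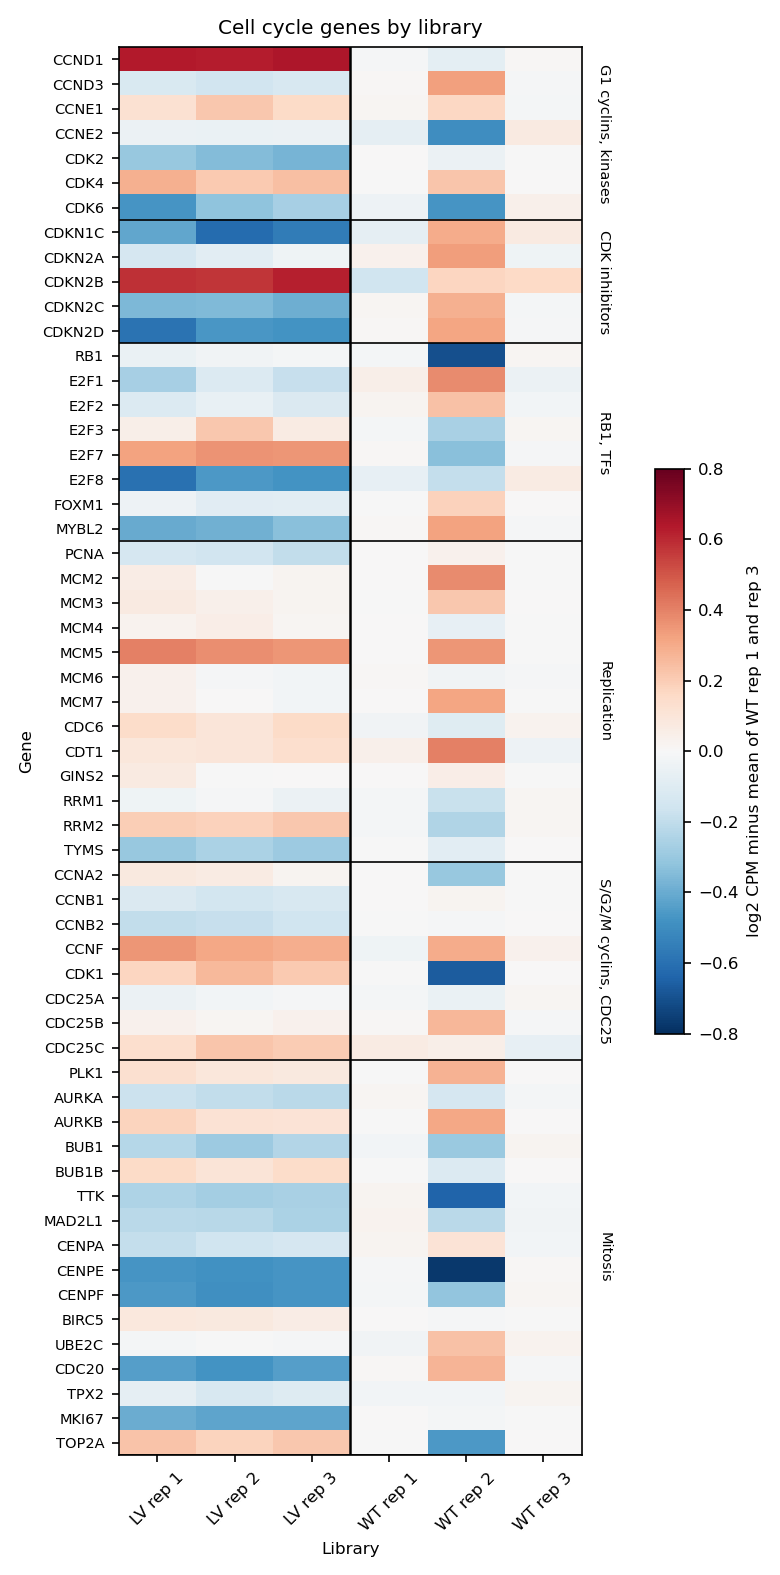
Each row is 1 of the 57 genes tested and each column 1 library, with LV replicates at the left; colour gives log2 CPM minus the mean of WT replicates 1 and 3. The 3 LV columns resemble one another, WT replicates 1 and 3 are near 0, and WT replicate 2 departs in both directions, from -0.76 for CENPE to 0.41 for CDT1.

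The replication genes were the most level of the large groups. Of 13, 1 rose and 2 fell with all libraries, with a median log2 fold change of 0.00467. The 6 genes of the MCM2-7 helicase, which unwinds DNA at origins, gave no call with all libraries by edgeR with the count filter, DESeq2, limma-voom or limma on log2(TPM + 1), and 1 had an unadjusted edgeR p under 0.05. Their log2 fold changes ran from -0.11 to 0.25. MCM6 had 143.4, 138.9 and 137.4 CPM in LV, against 140.6, 137.0 and 138.9 CPM in WT, and the groups overlapped. MCM5 was the exception without WT replicate 2: it had 305.5, 298.6 and 295.4 CPM in LV, against 231.8, 294.6 and 230.2 CPM in WT. WT replicate 2 came within 1 CPM of the lowest LV library, and the other WT libraries lay far below. MCM5 had a log2 fold change of 0.25 (edgeR adjusted p = 0.0777) with all libraries and 0.38 (adjusted p = 1.60e-16) without that one; it also passed on all 6 libraries with no filter (adjusted p = 0.0226) and with the GC correction (adjusted p = 4.30e-06). MCM7, which overlaps AP4M1 on the opposite strand, was the most abundant MCM gene per length, at 788.7 ± 17.7 TPM in LV and 871.9 ± 74.5 TPM in WT.

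PCNA, the sliding clamp of the replicative polymerases, had 393.8, 388.8 and 377.0 CPM in LV, against 433.8, 442.4 and 431.7 CPM in WT. The groups were separate and tight, but the difference was small (log2 fold change -0.17, SE 0.06, edgeR adjusted p = 0.0472). That call was lost in 9 of 20 alternatives: without each of LV replicates 1 to 3 and WT replicates 1 and 3, with RLE scaling, with no filter, with DESeq2 and with a replicate block (adjusted p up to 0.207), and held without WT replicate 2 (-0.16, adjusted p = 3.09e-08). TYMS, thymidylate synthase, had 168.6, 174.0 and 169.7 CPM in LV, against 207.5, 196.1 and 207.9 CPM in WT. All LV values lay below all WT values (log2 fold change -0.26, SE 0.06, adjusted p = 0.0114). The TYMS call was lost without any 1 LV library, with adjusted p up to 0.0724, and its exons overlap ENOSF1 on the opposite strand over 465 of 2470 bases and TYMSOS over 183.

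RRM2, the regulated subunit of ribonucleotide reductase, rose while its partner RRM1 did not pass. RRM2 had 405.8, 403.6 and 410.9 CPM in LV, against 351.5, 300.3 and 357.7 CPM in WT. All LV libraries were higher (log2 fold change 0.27, SE 0.08, edgeR adjusted p = 0.0234). That call was lost with library size alone as the scaling, on each TPM scale and without any 1 LV library (adjusted p up to 0.195). Without WT replicate 2, the lowest library, it was 0.20 (adjusted p = 3.34e-10). RRM1 averaged 275.8 ± 3.63 CPM in LV and 270.8 ± 19.0 CPM in WT (0.03, adjusted p = 0.805). The difference between the changes of RRM2 and RRM1 was not tested.

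Among the licensing genes, CDC6 and CDT1, which load the MCM helicase, were called higher without WT replicate 2. With the GC correction both also passed as higher on all 6 libraries (edgeR adjusted p = 0.00759 and 0.00145). CDC6 averaged 149.0 ± 3.06 CPM in LV and 132.8 ± 5.87 CPM in WT, with log2 fold changes of 0.17 (edgeR adjusted p = 0.0806) with all libraries and 0.13 (adjusted p = 3.91e-05) without WT replicate 2. CDT1 had 156.4, 157.2 and 161.7 CPM in LV, against 151.4, 194.8 and 142.8 CPM in WT. WT replicate 2 was the highest of the 6 libraries and turned the sign: -0.04 (adjusted p = 0.804) with it and 0.11 (adjusted p = 7.67e-04) without it. CDT1 has the highest GC content of the group, 64.9%. Of 8 genes whose sign differed between the fits, CDT1 was the only one called in either. MCM2, MCM3, MCM4, MCM6, MCM7, GINS2 and RRM1 passed in neither fit.

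None of the 8 genes of the S, G2 and mitotic cyclins, CDK1 and the CDC25 phosphatases passed with all libraries under the TMM scaling and count filter used throughout. At an unadjusted p under 0.05 edgeR gave 4 of them, and after adjustment DESeq2 called 1, limma-voom 1 and limma on log2(TPM + 1) 2. Other edgeR settings on all 6 libraries also gave calls: CDK1 with no filter (adjusted p = 1.09e-04) and with a replicate block (adjusted p = 0.0318), CCNB2 with upper-quartile factors (adjusted p = 0.0461) and a CPM filter (adjusted p = 0.0413), and CCNB1 (adjusted p = 0.0224) and CCNB2 (adjusted p = 0.0169) with library size alone. With the GC correction CDK1, CCNB1, CCNB2 and CCNF passed, and so did CCNA2 (log2 fold change 0.09, adjusted p = 0.0275). CDK1, the kinase that drives mitosis, had 146.1, 155.1 and 149.8 CPM in LV, against 129.5, 81.8 and 129.9 CPM in WT. LV was higher in each library, with WT replicate 2 far below its fellows. The log2 fold change was 0.40 (SE 0.16, edgeR adjusted p = 0.0742) with all libraries and 0.21 (SE 0.03, adjusted p = 1.97e-08) without WT replicate 2. CCNB1, the cyclin B1 partner of CDK1, had 204.6, 200.3 and 203.1 CPM in LV, against 222.6, 225.2 and 221.0 CPM in WT. CCNB2 had 72.7, 73.4 and 74.8 CPM in LV, against 83.1, 82.9 and 83.8 CPM in WT. Both B cyclins lay lower in every LV library, with log2 fold changes of -0.14 (adjusted p = 0.104) and -0.18 (adjusted p = 0.0551), and both passed without WT replicate 2 at -0.13 (adjusted p = 6.18e-06) and -0.18 (adjusted p = 3.34e-06).

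CCNF, cyclin F, a ubiquitin ligase subunit, averaged 88.3 ± 1.88 CPM in LV and 76.2 ± 9.38 CPM in WT and was called higher without WT replicate 2 (log2 fold change 0.32, edgeR adjusted p = 9.01e-11; 0.21 and adjusted p = 0.103 with all libraries). CDC25C, a phosphatase that activates CDK1, averaged 17.0 ± 0.551 CPM in LV and 15.1 ± 0.723 CPM in WT (0.17 with all libraries; without WT replicate 2 0.18, adjusted p = 0.0147), and overlaps FAM53C on the opposite strand. CCNA2, CDC25A and CDC25B passed in neither fit. CCNA2 averaged 159.4 ± 3.03 CPM in LV and 143.8 ± 16.9 CPM in WT, CDC25A 47.6 ± 0.676 CPM in LV and 47.9 ± 1.11 CPM in WT, and CDC25B 149.5 ± 1.18 CPM in LV and 156.9 ± 17.3 CPM in WT.

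The mitotic group held the proliferation marker MKI67, which fell. MKI67 (ENSG00000148773; chromosome 10, 128096659 to 128126385, minus strand), the gene of the Ki-67 antigen that coats mitotic chromosomes, had 248.2, 243.9 and 243.1 CPM in LV, against 326.7, 323.1 and 325.8 CPM in WT. Every LV library was below every WT library, and WT replicate 2 was level with its fellows. The log2 fold change was -0.41 (SE 0.06, edgeR adjusted p = 6.10e-04), or 1.33-fold lower, and -0.41 again without WT replicate 2.

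CDC20 (ENSG00000117399, chromosome 1, 43358955 to 43363203, plus strand), the activator of the anaphase-promoting complex, had the largest fall among the mitotic members when all 6 libraries were used. Without WT replicate 2 CENPF and CENPE, both at -0.48, fell further than CDC20 at -0.45. CDC20 had 147.7, 143.6 and 147.3 CPM in LV, against 201.1, 241.9 and 199.3 CPM in WT. The groups were far apart (log2 fold change -0.55, SE 0.09, edgeR adjusted p = 0.00106; -0.45 without WT replicate 2). CENPF, a kinetochore protein, had 151.0, 147.8 and 150.0 CPM in LV, against 205.3, 166.9 and 210.6 CPM in WT. WT replicate 2 lay nearest to LV, and the log2 fold change was -0.38 (SE 0.09, adjusted p = 0.0113) with it and -0.48 without it. The CENPF call was lost without LV replicate 2 and with limma on log2(TPM + 1) with no filter (adjusted p up to 0.0803).

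TOP2A, topoisomerase II alpha, was the one mitotic member called higher with all libraries under TMM scaling and the count filter. TOP2A had 398.3, 385.0 and 395.9 CPM in LV, against 340.2, 247.6 and 340.8 CPM in WT. LV was higher throughout, with WT replicate 2 the lowest library (log2 fold change 0.34, SE 0.12, edgeR adjusted p = 0.0446; 0.21, adjusted p = 1.83e-10 without it). The call was lost with library size alone as the scaling, on each TPM scale and without any 1 LV library (adjusted p up to 0.261). MKI67 and TOP2A, both in common use as proliferation markers, thus had opposite signs in these libraries.

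The other 12 mitotic members did not pass with all libraries under TMM scaling and the count filter, with log2 fold changes from -0.26 to 0.17. Some passed on all 6 libraries in other settings. With the GC correction AURKA, BUB1, MAD2L1, CENPA, CENPE and TPX2 were called lower and BUB1B higher. CENPA also passed with library size alone (edgeR adjusted p = 0.0241) and CENPE with no filter (adjusted p = 0.0298). Without WT replicate 2, 7 of the 12 were called lower. CENPE, a kinetochore motor, had 35.8, 35.4 and 35.7 CPM in LV, against 49.3, 29.1 and 49.9 CPM in WT, so that WT replicate 2 lay below LV and WT replicates 1 and 3 above. Its log2 fold change was -0.26 (edgeR adjusted p = 0.283) with all libraries and -0.48 (adjusted p = 8.40e-13) without WT replicate 2. TTK, a spindle checkpoint kinase, had the same pattern, with 32.8, 32.2 and 32.5 CPM in LV, against 39.6, 25.0 and 38.3 CPM in WT (-0.08 with all libraries; -0.26, adjusted p = 2.49e-06 without WT replicate 2). The checkpoint genes BUB1 (-0.16 with all libraries, -0.25 without WT replicate 2) and MAD2L1 (-0.16 and -0.23), the kinase gene AURKA (-0.15 and -0.19), its activator TPX2 (-0.09 and -0.10) and the centromeric histone gene CENPA (-0.20 and -0.16) were the other members called lower without that library.

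A further 4 of the 12 were called higher without WT replicate 2. They were the mitotic kinase genes PLK1 (log2 fold change 0.00 with all libraries, 0.10 without WT replicate 2) and AURKB (0.02 and 0.14), the checkpoint gene BUB1B (0.17 and 0.14) and BIRC5, or survivin (0.08 and 0.08). PLK1 had 154.7, 150.8 and 149.4 CPM in LV, against 141.1, 171.7 and 142.1 CPM in WT, with WT replicate 2 above all LV libraries and the other WT libraries below them. UBE2C, the ubiquitin-conjugating enzyme of the anaphase-promoting complex, passed in neither fit and averaged 106.9 ± 0.550 CPM in LV and 114.0 ± 11.2 CPM in WT.

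The way WT replicate 2 altered these results followed transcript GC content. Across the 57 genes, the log2 difference between WT replicate 2 and the mean of WT replicates 1 and 3 ran from -0.76 to 0.41, and WT replicate 2 was the lowest of all 6 libraries for 20 genes and the highest for 21. That difference had a Pearson correlation of 0.90 and a Spearman correlation of 0.91 with the GC content of the longest transcript. The 57 points share the same 3 libraries, and the correlation is given as a description only. Among 18 genes with GC under 45%, WT replicate 2 was below the other WT libraries in 16, with a median difference of -0.31. Among 18 genes with at least 55% GC it was above them in all 18, with a median of 0.31. Between WT replicates 1 and 3 the correlation with GC was 0.26, and the median size of the difference was 0.0199, against 0.240 for WT replicate 2. The same slope was present in all genes tested, from -0.456 under 40% GC to 0.341 at 60% or more. A correction of each library for GC content, with all 6 libraries kept, called 13 genes higher, or 22.8% against 27.4% of all genes, and 24 lower, or 42.1% against 29.3%. In either direction these are 64.9%, against 56.7% of all genes. Of those 37, 36 were also called without WT replicate 2, all 36 in the same direction. The 2 fits share every library but WT replicate 2, so this overlap is not independent evidence. What made WT replicate 2 differ was not tested.

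**Figure D4:**
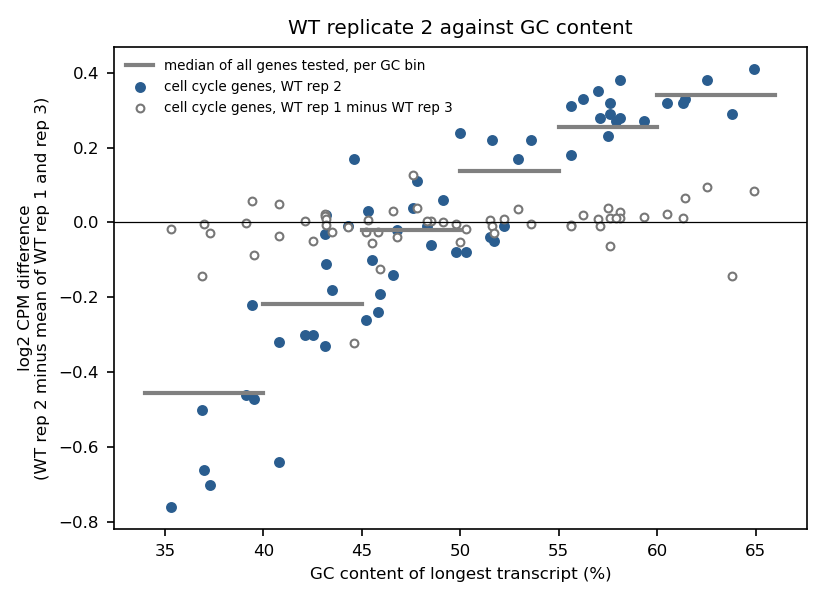
Log2 CPM of WT replicate 2 minus the mean of WT replicates 1 and 3 (y axis) against GC percent of the longest transcript (x axis) for the 57 genes (filled points), with WT replicate 1 minus WT replicate 3 as open points and the median of all genes tested per GC bin as grey lines. The filled points climb from -0.76 at 35.3% GC to 0.41 at 64.9% GC, whereas the open points lie between -0.32 and 0.13.

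The coefficient of variation over 3 libraries had a median of 1.80% in LV and 10.2% in WT across the 57 genes. The WT value includes WT replicate 2, whose median log2 distance from the other WT libraries was 0.240, against 0.0199 between WT replicates 1 and 3. The CPM of both groups did not overlap for 35 of the 57 genes, or 61.4%, against 54.0% of all genes tested. Once WT replicate 2 was set aside, LV did not overlap WT replicates 1 and 3 for 47 genes, or 82.5%, against 71.9% of all genes tested.

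**Figure D5:**
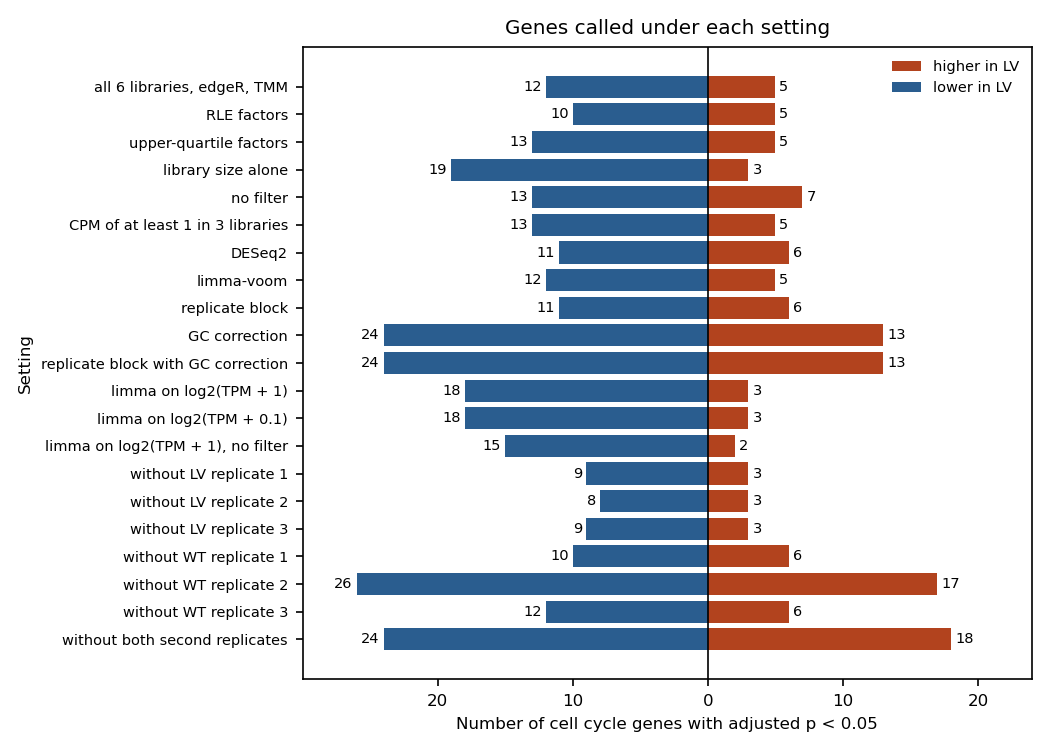
Number of the 57 genes called higher in LV (red, to the right) and lower in LV (blue, to the left) at an adjusted p under 0.05 (x axis) under each setting (y axis). The bars are longest without WT replicate 2, without both second replicates and with a GC correction; those without any 1 LV library are among the shortest.

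Other genes of the same pathway, 140 in 5 lists that hold none of the 58, also moved little and both ways. All 140 were tested, 15 rose and 15 fell with all libraries, or 21.4% against 38.8% of all genes, the median log2 fold change was -0.0138, and none reached 2-fold. Without WT replicate 2, 42 rose and 63 fell, or 75.0% against 59.8% of all genes. Of 44 other replication genes, 4 rose and 4 fell. CHAF1B, a subunit of chromatin assembly factor 1, averaged 115.7 ± 1.92 CPM in LV and 71.4 ± 1.95 CPM in WT (log2 fold change 0.70, edgeR adjusted p = 3.79e-05). LIG1, the DNA ligase of lagging strand synthesis, averaged 120.5 ± 2.26 CPM in LV and 188.6 ± 27.0 CPM in WT (-0.65). CDC7, the kinase that fires licensed origins, averaged 28.2 ± 0.928 CPM in LV and 38.1 ± 6.36 CPM in WT (-0.44).

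Of 50 other mitotic genes, 7 rose and 7 fell. CENPN, a centromere protein, averaged 257.0 ± 3.50 CPM in LV and 162.7 ± 11.6 CPM in WT (log2 fold change 0.66, edgeR adjusted p = 1.12e-04). DLGAP5, a spindle protein, averaged 38.5 ± 0.450 CPM in LV and 57.3 ± 8.56 CPM in WT (-0.57), and NUF2, a kinetochore subunit, 60.7 ± 2.51 CPM in LV and 84.2 ± 13.9 CPM in WT (-0.47).

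Among 14 genes of the DREAM and MuvB complexes and E2F partners, 1 rose and 2 fell. LIN9, a MuvB core subunit, averaged 26.3 ± 1.26 CPM in LV and 42.2 ± 6.48 CPM in WT (log2 fold change -0.68, edgeR adjusted p = 0.00162), and the E2F partner TFDP2 31.2 ± 0.440 CPM in LV and 43.4 ± 2.16 CPM in WT (-0.48). RBL1, the pocket protein p107, rose to 40.5 ± 0.303 CPM in LV, against 27.7 ± 4.81 CPM in WT (0.55). Of 20 genes of the APC/C and SCF ubiquitin ligases, 3 rose and 2 fell: CDC23 averaged 82.1 ± 1.33 CPM in LV and 58.4 ± 3.56 CPM in WT (0.49), FBXO5, the inhibitor EMI1, 30.8 ± 1.18 CPM in LV and 42.0 ± 5.81 CPM in WT (-0.45), and UBE2S 539.3 ± 9.22 CPM in LV and 697.6 ± 89.9 CPM in WT (-0.37). Of 12 genes of cohesin and its regulators, none passed with all libraries by edgeR. Of these, 1 had an unadjusted edgeR p under 0.05 and 1 was called by DESeq2, and 4 rose and 6 fell without WT replicate 2. The separase gene ESPL1 was counted with the other mitotic genes.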

How the data were processed

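PolyA-selected RNA of 6 22Rv1 libraries was measured, 3 per group by sample title. Per the submitters' processing notes, the tools were Trimmomatic 0.36, STAR 2.5.2b and featureCounts (Subread 1.5.2), with the genome GRCh38. No source used here gives parameters, annotation release or strand setting. The authors deposited raw counts per gene and a table of TPM; TPM recomputed from the counts lay within a relative 4.8e-05 of the deposited TPM for values above 0.01. Rows without a gene, some with spreadsheet errors, were left out.

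The test was edgeR 4.0.16's quasi-likelihood fit (R 4.3.3) with filterByExpr, TMM factors, robust estimation and group as the only term, adjusted by Benjamini-Hochberg over 19255 genes. The step was first tested on simulated data, where it called 43.9% of genes changed 1.5-fold and 80.3% of those changed 2-fold. A gene that did not pass may therefore still differ. The simulated libraries held no GC-linked departure of WT replicate 2, and the genes changed were drawn at random from all genes tested. These rates need not hold for the cell cycle genes. SE is the size of the log2 fold change over the square root of F. Every pair of libraries differed by more than sampling noise (chi-square test over genes averaging 50 counts or more). Alternatives were other scaling factors and filters, DESeq2 1.42.0, limma-voom (limma 3.58.1), limma on log2(TPM + 1) or log2(TPM + 0.1), a replicate block, a GC correction from GENCODE 29 transcripts, and libraries left out.

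The members and lists were chosen with earlier results of these data known. Genes named are the members past the threshold with or without WT replicate 2, a set of role anchors, and the 3 largest called changes per pathway list with at least 1 CPM; other members are named for completeness.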

Additional observations from a re-analysis of the deposited data

How the results depend on the processing

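The 17 cell cycle genes called with all 6 libraries kept their direction in all 20 alternatives; 7 of them lost the call in at least one, and the cause was not tested. All genes called numbered 7476 with all libraries, 5600 to 11870 with 1 library left out and 11677 without both second replicates. Members higher in LV numbered 5 and members lower 12. With 1 library left out they ranged from 3 to 17 and from 8 to 26, the highest of each without WT replicate 2; without both second replicates they were 18 and 24. A GC correction gave 13 and 24, alone or with the replicate block, and library size alone 3 and 19. Limma on TPM gave 3 members higher with either pseudocount and 2 with no filter. The replicate block alone gave 6 higher and 11 lower and called 7052 genes. Deviations from the group mean correlated by -0.00842, 0.00925 and 0.0722 between same-numbered libraries, and by -0.0398 to 0.0304 between the others. With 3 libraries per group and WT replicate 2 apart, these values cannot show whether the numbers pair the libraries.

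The members' median log2 fold change of -0.08 was -0.07 with RLE factors, -0.09 with upper-quartile factors or no filter, -0.14 with library size alone and -0.06 with limma-voom or the replicate block. It was -0.04 with the GC correction, with or without the block, -0.10 on each TPM scale, -0.02 without both second replicates and -0.10 to -0.03 with 1 library left out. LV replicate 2 had the fewest counts, 28395265, and the scarcest members tested, CDKN1C and CDKN2B, rest on 106 to 323 and 208 to 392 reads per library, which limits their precision.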
